A study of Rattus norvegicus with 16 samples.

Results

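The 8 genes described here belong to the Notch pathway and are followed across the arrays of a study of rat cells that the submitters name muscle satellite cells. They are the receptors Notch1, Notch2 and Notch3, the ligands Jag1 and Dll1, and the target genes Hes1, Hey1 and Heyl. A probe set, the group of short probes that reads 1 transcript on the array, was taken where the platform annotation gave it exactly 1 of these symbols. The 8 genes are among 14218 that the array reads by such a probe set, and they had 10 of the 31042 probe sets that are not controls, with 2 probe sets each for Notch1 and Heyl and 1 for each of the other genes. Of the 10, 6 probe sets for 6 genes had a mean signal of at least 300 and entered the test, and 4 did not: those of Notch2 and Dll1 and the dimmer ones of Notch1 and Heyl.

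The cells, called LASCs in the labels, are given by the submitters as satellite cells from the levator ani, an androgen-dependent muscle of the pelvic floor. All were at passage 5. They were given NARA, a nonsteroidal agonist of the androgen receptor, at 10 nM, or its vehicle, 0.2% DMSO, for 4 h or 48 h. All groups were treated in medium with 10% charcoal-stripped serum, which is depleted of steroids. Each of the 16 deposited arrays holds 1 sample; the authors left out 3, which leaves vehicle 4 h (n = 4), NARA 4 h (n = 2), vehicle 48 h (n = 3) and NARA 48 h (n = 4). The titles speak of biological replicates but tie none to a culture or animal, so each p-value rests on the spread between samples that may be technical repeats.

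Notch receptors are cut at the membrane when a neighbouring cell presents a Delta or Jagged ligand. The freed intracellular part enters the nucleus, binds the DNA-binding protein RBPJ and switches on the Hes and Hey genes, which encode transcriptional repressors. In skeletal muscle the pathway is known for keeping satellite cells quiescent and for holding back myogenic differentiation, and Dll1 and Jag1 are among its ligands there.

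The promoters of Hes1 and Dll1 are shown because they hold the letters of the RBPJ core motif, and that of Heyl because it is a Notch target gene whose window does not hold them. RefSeq promoters on the rat build GRCr8 were matched for 7 of the 8 genes, Hey1 being the one without an entry. The 250 bases before the start site are printed 5′ to 3′ on the gene's strand, with the RBPJ core TGGGAA, or TTCCCA where it lies on the other strand, in capitals. Hes1 is at chr11:84213046-84213295 on the minus strand, Dll1 at chr1:64993275-64993524 on the minus strand and Heyl at chr5:140793021-140793270 on the plus strand.
Hes1: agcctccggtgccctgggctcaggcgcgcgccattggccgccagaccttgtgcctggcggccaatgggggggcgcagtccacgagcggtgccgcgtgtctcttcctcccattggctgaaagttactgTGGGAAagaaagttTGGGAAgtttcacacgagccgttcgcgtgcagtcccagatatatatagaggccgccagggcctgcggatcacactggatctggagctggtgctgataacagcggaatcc
Dll1: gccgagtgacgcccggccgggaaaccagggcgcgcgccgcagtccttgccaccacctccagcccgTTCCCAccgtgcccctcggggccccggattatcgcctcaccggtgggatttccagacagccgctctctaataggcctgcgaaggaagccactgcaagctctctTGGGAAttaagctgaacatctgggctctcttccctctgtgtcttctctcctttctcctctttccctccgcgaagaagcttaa
Heyl: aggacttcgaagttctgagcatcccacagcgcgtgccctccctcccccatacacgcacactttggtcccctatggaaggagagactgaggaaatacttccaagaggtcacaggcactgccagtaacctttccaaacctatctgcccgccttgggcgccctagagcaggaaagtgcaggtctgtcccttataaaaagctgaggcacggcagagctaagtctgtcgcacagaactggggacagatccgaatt

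Hes1 held 2 RBPJ cores on its own strand, at bases -123 to -118 and -109 to -104 from the start site. Dll1 also held 2, at -185 to -180 on the other strand and at -82 to -77 on its own. Of 33469 promoter windows of this length, 22.1% held at least 1 core on either strand and 2.71% at least 2. The windows of Notch1, Notch2, Notch3, Jag1 and Heyl held none of these letters.

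The N box, CACNAG on either strand, is a sequence that Hes proteins bind. It occurred 4 times in the Hes1 window and 4 times in that of Notch1, where 2 of the occurrences overlap on opposite strands, and 1 time in that of Notch3. At least 1 N box was in 37.2% of all windows and at least 2 in 8.02%. The hexamer AGAACA, which steroid receptors bind, was, on either strand, in 0 of the 7 windows and in 17.5% of all windows. No occurrence overlapped one of another motif. These are matches of letters, not measured binding.

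**Figure D1:**
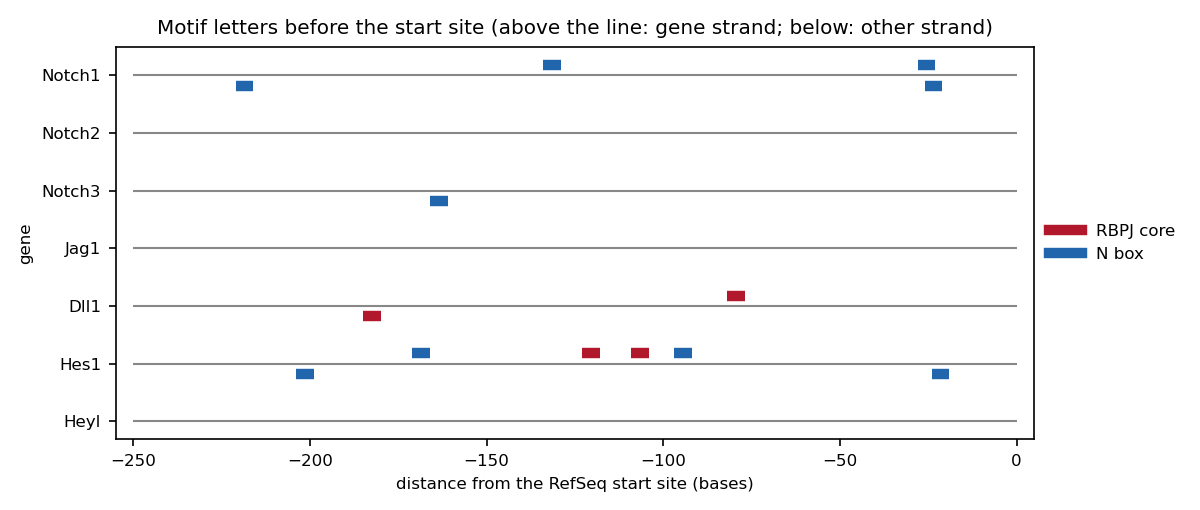
Positions of the RBPJ core (red) and the N box (blue) in the 250 bases before the start site of the 7 genes with a promoter entry. The x axis is the distance from the start site in bases, and bars above or below each line are on the gene's strand or the other strand; Hes1 and Dll1 each hold 2 RBPJ cores.

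The 13 kept arrays correlated with each other at 0.930 to 0.956 over the 31042 probe sets, which are not independent replicates, and median signals ran from 539 to 786 over the 16 arrays. The left-out NARA 4 h replicates 1 and 4 correlated with them at 0.645 to 0.673, and their summed signal over 9 measured liver genes was 1046425 to 1213434, against 3319 to 5896 in the kept arrays. Vehicle 48 h replicate 1, also left out, correlated at 0.922 to 0.933. Of the satellite cell markers, Pax7, Pax3 and Myf5 had no probe set with 1 symbol, and Myod1 was dim, with group means of 45.6 in vehicle and 157 in NARA at 48 h. Of the other muscle markers in vehicle at 48 h (SD, n = 3), Cdh15 was at 1190 ± 39.6 and Myog at 1015 ± 211. Ncam1 was at 880 ± 200 and Des at 812 ± 149. Itga7, at 394 ± 220, and Vcam1, at 337 ± 84.2, were dimmer, and Chrna1, at 291 ± 53.9, was below the minimum for testing. The 8 measured fibroblast markers were all brighter than each of these muscle markers, the dimmest being Dpt at 3108 ± 80.7 (SD, n = 3). Among them Pdgfra was at 9292 ± 1445 (SD, n = 3) and Lum at 43771 ± 2634 (SD, n = 3). The name satellite cells is that of the submitters, and these marker signals do not settle which cells were present. In bulk samples such as these, fewer cells of a type and less RNA per cell cannot be told apart.

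After 48 h of NARA, Hes1 was the member that passed the test, at a level 1.39-fold higher than in vehicle. Notch1, Hey1 and Notch3 had differences above 0 and Jag1 one below 0, and none of these passed. After 4 h no member passed. Across all 20904 probe sets tested, limma called 586, or 2.80%, at 48 h, with 285, or 1.36%, higher in NARA. At 4 h it called 0 (0%), where 992, or 4.75%, had an unadjusted p under 0.05.

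**Figure D2:**
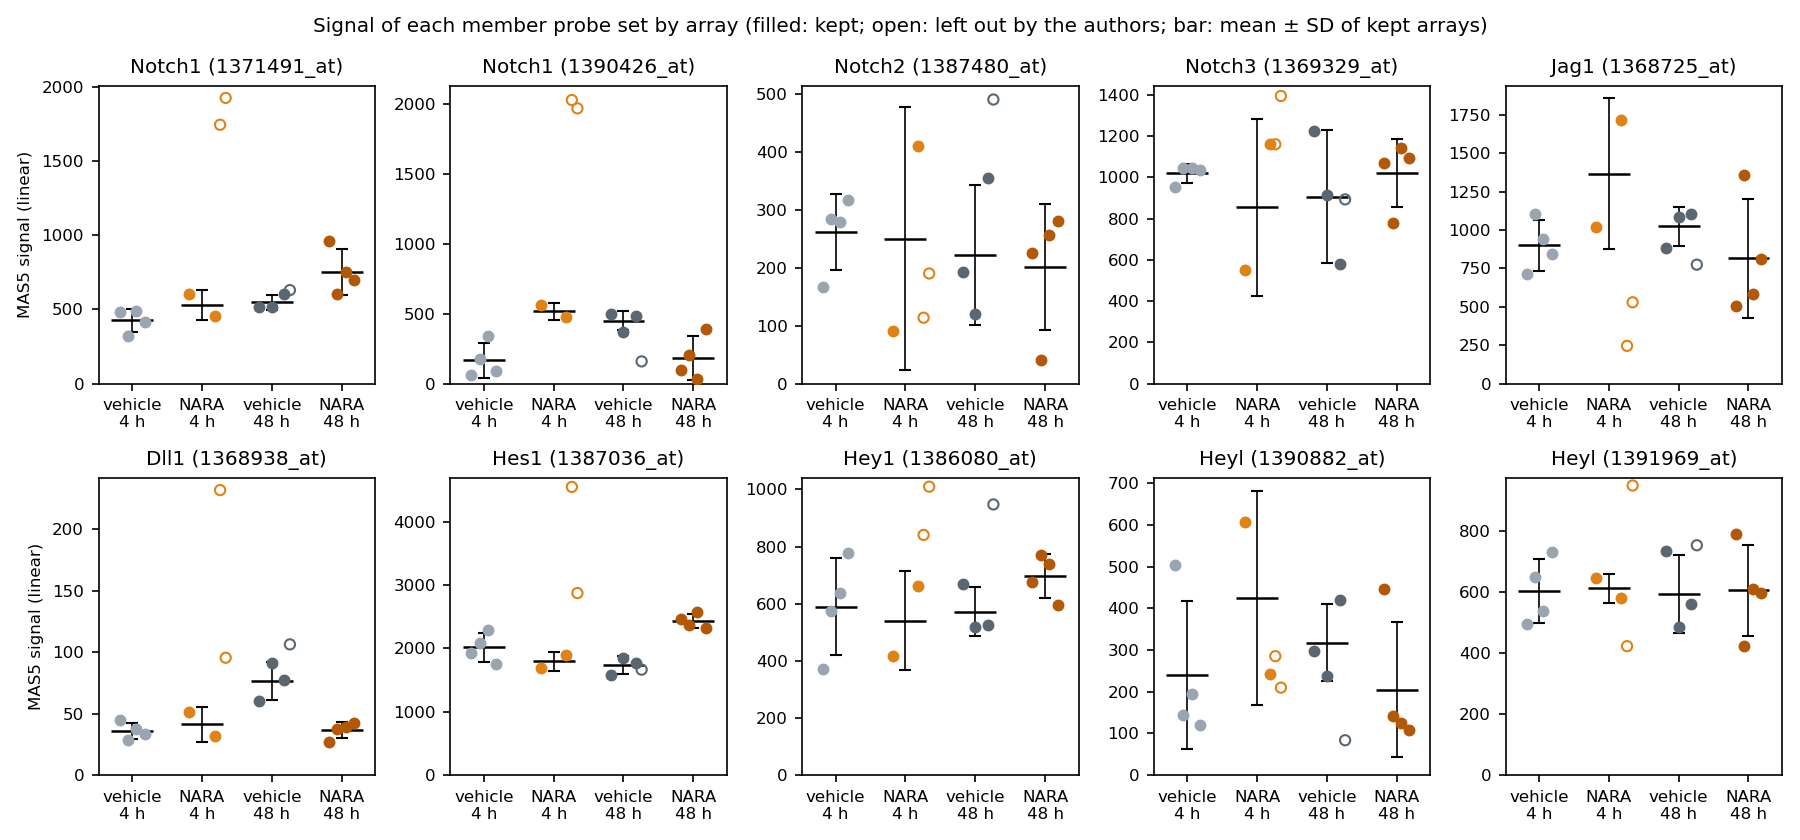
MAS5 signal on a linear axis for each of the 10 member probe sets, by group; filled points are kept arrays, open points are arrays that the authors left out, and bars are the mean ± SD of the kept arrays. At 48 h the 4 NARA arrays of Hes1 lie at 2324 to 2572, above the vehicle arrays at 1583 to 1855, and the open points of Hes1 and Notch1 at 4 h lie far above the kept ones.

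Jag1, a membrane ligand of the Jagged type, had signals of 714, 1107, 938 and 842 in vehicle and of 1018 and 1713 in NARA at 4 h. At 48 h Jag1 had signals of 879.7, 1082 and 1107 in vehicle and of 504, 1358, 584 and 812 in NARA. The highest array of the 4 h groups and of the 48 h groups was a NARA array, yet 3 of the 4 NARA arrays at 48 h lay below every vehicle array, and the groups overlapped at both times. The log2 difference, NARA minus vehicle on the scale log2(signal + 50), was 0.55 ± 0.33 (SE) at 4 h, with a limma adjusted p of 1.00. For Jag1 at 48 h it was -0.40 ± 0.29 (SE), with a limma adjusted p of 0.562. The difference between the 2 effects was -0.95 ± 0.45 (SE), which did not pass either, with a limma adjusted p of 0.574. Single arrays moved these values: at 4 h Jag1 was at 0.18 without NARA replicate 3 and 0.91 without NARA replicate 2, and at 48 h at -0.22 without NARA replicate 1 and -0.67 without NARA replicate 2.

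Dll1, a ligand of the Delta type, was the dimmest member and lay below the minimum for testing. At 4 h its signals were 44.5, 28.2, 37.1 and 33.7 in vehicle and 51.4 and 31.4 in NARA. At 48 h they were 60.3, 91.5 and 77.7 in vehicle and 27.0, 37.2, 39.2 and 42.3 in NARA. All 3 vehicle arrays at 48 h lay above all 4 NARA arrays and above the vehicle arrays of 4 h, while the 4 h groups overlapped. Of all probe sets tested, 14.7% did not overlap between NARA and vehicle at 48 h, and 8.90% between the vehicle times. The log2 difference at 48 h was -0.55 ± 0.13 (SE), and when all probe sets were tested without a minimum its limma adjusted p was 0.0953. The added offset of 50 is as large as these signals, so the log2 difference understates the ratio of the group means, 76.5 ± 15.6 (SD, n = 3) against 36.4 ± 6.61 (SD, n = 4). With no detection calls used, signals this low cannot be told from background, and neither can a ratio between them.

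Notch1, a receptor, was read by a pair of probe sets whose differences at 48 h had opposite signs. By its brighter probe set, 1371491_at, Notch1 had signals of 479, 318, 491 and 412 in vehicle and of 601 and 455 in NARA at 4 h. At 48 h this probe set gave 518, 517 and 604 in vehicle and 963, 601, 748 and 695 in NARA. At 48 h 3 of the 4 NARA arrays lay above every vehicle array and the fourth, at 601, lay just under the highest of them. The log2 difference was 0.29 ± 0.20 (SE) at 4 h, with a limma adjusted p of 1.00, and 0.41 ± 0.18 (SE) at 48 h. At 48 h the unadjusted limma p was 0.0405 and the adjusted p 0.280, so the probe set did not pass. With the NARA 4 h arrays taken 1 at a time, the 4 h difference of Notch1 was 0.11 without replicate 2 and 0.47 without replicate 3.

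The dimmer Notch1 probe set, 1390426_at, was not tested. Its signals at 4 h were 61.6, 174, 341 and 87.5 in vehicle and 559 and 473 in NARA. At 48 h they were 495, 371 and 485 in vehicle and 99.0, 201, 28.9 and 390.2 in NARA. Both NARA arrays thus lay above all vehicle arrays at 4 h, where 14.3% of all probe sets tested did not overlap. At 48 h 3 of the 4 NARA arrays lay below all vehicle arrays and the fourth, at 390.2, above the lowest. The log2 difference was 1.56 ± 0.62 (SE) at 4 h and -1.39 ± 0.54 (SE) at 48 h, and without a minimum the limma adjusted p was 0.982 and 0.321.

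Notch2, a further receptor, was below the minimum too. Its signals at 4 h were 167, 284, 279 and 318 in vehicle and 90.2 and 411 in NARA. At 48 h they were 192, 119.7 and 356 in vehicle and 225, 40.8, 257 and 280.5 in NARA. The groups overlapped at both times, with log2 differences of -0.27 ± 0.59 (SE) and -0.19 ± 0.52 (SE).

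Notch3, the receptor best known from vascular mural cells, had signals of 952, 1045, 1045 and 1037 in vehicle and of 552 and 1159 in NARA at 4 h. At 48 h Notch3 had signals of 1225, 916 and 578 in vehicle and of 1068, 779.8, 1142 and 1093 in NARA. The vehicle arrays at 4 h lay close together and the other groups were wide, and the groups overlapped at both times. The log2 difference was -0.33 ± 0.30 (SE) at 4 h and 0.21 ± 0.26 (SE) at 48 h, with limma adjusted p of 1.00 and 0.759. Without NARA 4 h replicate 2 the difference at 4 h was 0.18, and without vehicle 48 h replicate 4 that at 48 h was -0.066.

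Hes1, a basic helix-loop-helix repressor and a direct target of Notch, had signals of 1583, 1855 and 1766 in vehicle and of 2458, 2375, 2572 and 2324 in NARA at 48 h. All 4 NARA arrays lay above all 3 vehicle arrays, and also above the vehicle arrays of 4 h. Hes1 rose from 1735 ± 138 (SD, n = 3) to 2432 ± 108 (SD, n = 4), a log2 difference of 0.48 ± 0.11 (SE) with a 95% interval of 0.24 to 0.72 and a limma adjusted p of 0.0439. It was 1 of 6 members tested that passed and also 1 of 6 whose groups did not overlap, and 14.7% of all probe sets tested did not overlap at 48 h. An unadjusted p under 0.05 was given to 2 of the 6 genes, Hes1 and Notch1, against 17.1% of all genes tested by their brightest probe set.

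The difference in Hes1 kept its direction in all 25 alternative settings, with log2 differences of 0.42 to 0.53, but the call was lost in 17 of them. It was lost in 11 of the 13 fits that left out 1 array, with adjusted p of 0.0610 to 0.163, and was kept without vehicle 4 h replicate 3 or replicate 4. It was also lost with all 16 arrays (adjusted p = 0.917), with array weights on them (0.0551), without a signal minimum (0.103), with median scaling (0.0812), with the replicate number as a block (0.0861) and when the fit held the 48 h groups alone (0.136). With vehicle 48 h replicate 1 put back, where Hes1 had a signal of 1663, the log2 difference was 0.49 and the adjusted p 0.0158.

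**Figure D3:**
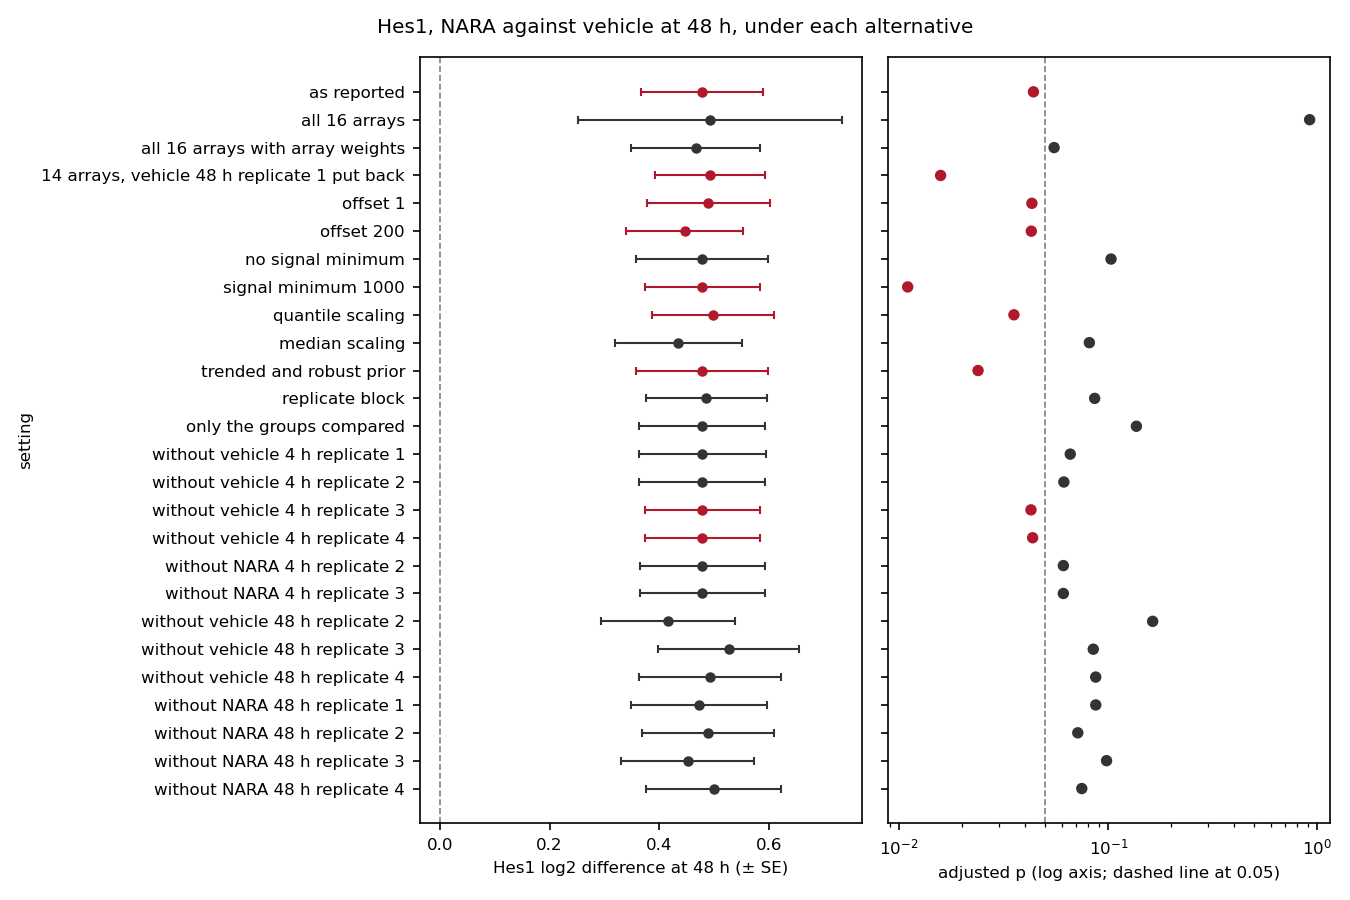
Hes1 at 48 h under each setting: the left panel gives the log2 difference, NARA minus vehicle, ± SE, and the right panel the limma adjusted p on a log axis with a dashed line at 0.05; red marks settings under that line. The differences stay between 0.42 and 0.53 while most adjusted p lie to the right of the line.

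Sums of cell type markers also differed between the 48 h groups, and their part in the Hes1 difference was not tested. At 48 h the summed signal over 8 satellite cell and myoblast markers was 4744 to 5300.1 in vehicle and 5677 to 6379 in NARA, where 0 of 6 tested markers passed. Ncam1, with means of 880 in vehicle and 1384 in NARA, and Itga7, with 394 and 761, had the largest differences in mean. Des, Vcam1 and Chrna1 had lower means in NARA. Over 9 smooth muscle and pericyte markers the sum was 17907 to 20354 in vehicle and 13800 to 17267 in NARA, with 0 of 9 past the test. Tagln, with means of 8547 in vehicle and 5579 in NARA, and Acta2, with 5076 and 4019, weigh most in this sum. By gene, the median log2 difference of the 9 was -0.019, with 4 above 0. With the left-out vehicle 48 h replicate 1, at 5819.9 and 16897, both of these sums overlapped between the groups. Over 8 fibroblast markers the sum was 277948 to 336881 in vehicle and 249996 to 324749 in NARA, which overlapped, and 2 of 8 passed as lower. Pdgfra, a receptor of fibro-adipogenic cells, had a log2 difference of -0.75 (limma adjusted p = 0.0454). Lum, a matrix proteoglycan, had -1.06 (limma adjusted p = 0.000248). Of all probe sets tested at 48 h, 2.80% passed in either direction and 1.36% as higher. Of the other 6 fibroblast markers, the collagens Col3a1, at 0.39 (limma adjusted p = 0.124), and Col1a1, at 0.035 (limma adjusted p = 0.950), had differences above 0. These collagens were the brightest of the 8, with vehicle means of 102939 and 77114, and so weigh most in the sum. Dcn (-0.56, limma adjusted p = 0.0822), Postn (-0.59, 0.147), Dpt (-0.37, 0.310) and Thy1 (-0.27, 0.495) had differences below 0 that did not pass. Over 6 endothelial markers the sums overlapped, at 2254 to 3971 in vehicle and 2750 to 3137 in NARA, and so did those over 6 leukocyte markers, at 3922 to 6009 and 5272 to 5896.

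At 4 h Hes1 had signals of 1922, 2091, 2281 and 1759 in vehicle and of 1691 and 1894 in NARA. The lowest array was a NARA array and the groups overlapped. The log2 difference was -0.16 ± 0.13 (SE), with a limma adjusted p of 1.00, and it was -0.079 without NARA 4 h replicate 2. With all 16 arrays, including the NARA 4 h replicates with high liver signal, it was 0.34. The difference between the effects at 48 h and 4 h was 0.64 ± 0.17 (SE), with an unadjusted limma p of 0.00270 and an adjusted p of 0.255. So Hes1 passed at 48 h and not at 4 h, but the test of the difference itself did not pass.

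Hey1, a Hes-related repressor, had signals of 369.8, 573, 638 and 777 in vehicle and of 418 and 663 in NARA at 4 h. At 48 h Hey1 had signals of 670.3, 517 and 527 in vehicle and of 676, 772, 739.6 and 596 in NARA. At 48 h 3 of the 4 NARA arrays lay above every vehicle array, and the groups overlapped. The log2 difference was -0.10 ± 0.25 (SE) at 4 h and 0.27 ± 0.22 (SE) at 48 h, with limma adjusted p of 1.00 and 0.617. With vehicle 48 h replicate 1 put back, at 947 the highest array of that time, the difference at 48 h was 0.093. The sign at 4 h turned without NARA 4 h replicate 2, to 0.20, and without vehicle 4 h replicate 4, to 0.034.

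Heyl, a repressor of the same family, had signals by its brighter probe set, 1391969_at, of 496, 649.6, 537 and 729 in vehicle and of 644 and 579 in NARA at 4 h. At 48 h this probe set gave 734, 484 and 561 in vehicle and 789.7, 423, 609.8 and 597 in NARA. The NARA arrays of 48 h held both the highest and the lowest value at that time. The log2 difference was 0.031 ± 0.23 (SE) at 4 h and 0.017 ± 0.20 (SE) at 48 h, with limma adjusted p of 1.00 and 0.984. Its 95% interval at 48 h was -0.42 to 0.46, and the sign turned in 8 of 24 alternative settings.

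The dimmer Heyl probe set, 1390882_at, was not tested. Its signals at 4 h were 503, 144, 195 and 120.4 in vehicle and 607 and 243 in NARA. At 48 h they were 297, 237 and 419.6 in vehicle and 446, 141, 124 and 107 in NARA. A single NARA array at 48 h lay above all vehicle arrays and the other 3 below all of them. The log2 differences were 0.76 ± 0.56 (SE) at 4 h and -0.68 ± 0.49 (SE) at 48 h.

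**Figure D4:**
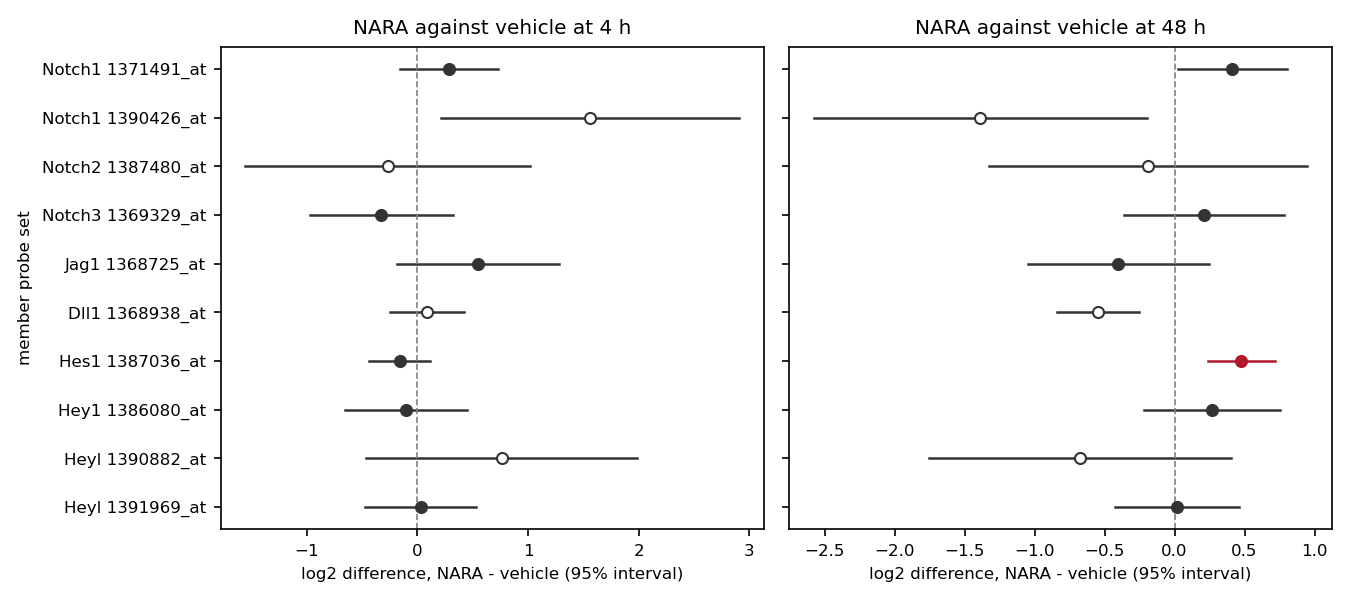
Log2 difference, NARA minus vehicle, with its 95% interval, for the 10 member probe sets at 4 h (left) and 48 h (right); filled points were tested, open points lay below the signal minimum, and red marks an adjusted p under 0.05. Hes1 at 48 h, at 0.48, is the red point. Values of the open points come from the fit without a minimum. Their intervals use the degrees of freedom of the main fit and are approximate.

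Taking the 6 tested members as a group, the median log2 difference at 48 h was 0.24, with 5 of 6 above 0 (Heyl below 0 with quantile or median scaling), against -0.0037 over all probe sets tested. Of these 20904 probe sets, 10339 were above 0 at 48 h. At 4 h the members' median was -0.037, with 3 of 6 above 0, against 0.0072 over all. At 4 h 0 of 6 had groups that did not overlap, against 14.3% of all probe sets. For the difference between the effects, 0 of 6 passed and 1 of 6, Hes1, had an unadjusted p under 0.05. These shares were 0.124% of all probe sets tested and 9.18% of all genes by their brightest probe set. The 2 effects come from separate arrays and share no control.

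The vehicle groups show how the members differed between 4 h and 48 h of culture without agonist. No tested member passed, with limma calling 0 (0%) of all probe sets, of which 7.35% had an unadjusted p under 0.05 against 0 of 6 members. Notch1 by 1371491_at was the 1 of 6 whose groups did not overlap, with a log2 difference of 0.34 ± 0.18 (SE) and a limma adjusted p of 0.699, and 8.90% of all probe sets did not overlap. Hes1 had a log2 difference of -0.21 ± 0.11 (SE), with a limma adjusted p of 0.703. Of the dim probe sets, Dll1, at 0.56 ± 0.13 (SE), and 1390426_at of Notch1, at 1.38 ± 0.54 (SE), did not overlap between the times. Tested without a minimum, their limma adjusted p was 0.602 and 0.800, and the left-out vehicle 48 h replicate 1, at 158, lay inside the 4 h range of this Notch1 probe set.

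The rest of the pathway was described from lists of 77 Notch genes that include the 8 members. Of these, 66 were on the array and 57 were tested. At 48 h 4 were higher in NARA and 0 lower: Hes1, Dlk2, Mfap2 and Tle1. Over all 11286 genes tested by their brightest probe set, 1.71% were higher. The median log2 difference over the 57 was -0.043, with 27 above 0 and 12 at an unadjusted p under 0.05. Over all genes the median was -0.0051, 49.2% were above 0 and 17.1% had such a p. Without the 8 members, 3 of 51 were higher. The lists were written with earlier results of these data known, so these counts do not test whether the pathway stands out. At 4 h 0 of 57 passed, and 1, Dtx3l, had an unadjusted p under 0.05, as did 4.28% of all genes.

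Dlk2, a Delta-like protein without the usual receptor-binding domain, rose from 605 ± 408 (SD, n = 3) to 2403 ± 236 (SD, n = 4) at 48 h, a log2 difference of 2.17 ± 0.41 (SE) with a limma adjusted p of 0.0157. Mfap2, a microfibril protein that has been described as a Notch ligand outside the Delta and Jagged families, rose from 196 ± 101 (SD, n = 3) to 1371 ± 73.0 (SD, n = 4), by a log2 difference of 2.60 ± 0.40 (SE) and a limma adjusted p of 0.00521. Dlk2 and Mfap2 belong to the list of non-canonical ligands, of which 2 of 6 tested passed, both as higher. Over all genes tested by their brightest probe set, 1.71% passed as higher. Ccn3, a secreted matricellular protein of the same list, was at 1023 ± 183 (SD, n = 3) in vehicle and 565 ± 148 (SD, n = 4) in NARA, a log2 difference of -0.82 ± 0.20 (SE) that just missed the threshold, with a limma adjusted p of 0.0509. Tle1, a Groucho co-repressor that Hes proteins recruit, rose from 1473 ± 210.4 (SD, n = 3) to 2304 ± 141 (SD, n = 4), by 0.64 ± 0.13 (SE) with a limma adjusted p of 0.0206. The other 11 tested co-repressors did not pass.

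The count of 4 pathway genes fell to 1 with the replicate number as a block or when the fit held the 48 h groups alone, to 2 without a signal minimum, and to 0 with all 16 arrays. It was 6 with a signal minimum of 1000 and with the robust prior with a trend, 5 of them higher and 1 lower. The lower gene was Furin (limma adjusted p = 0.0347) with the minimum of 1000 and Ccn3 (0.0292) with that prior, and Kat2b was called higher in both. Over all probe sets tested, both settings also called more than the 586 of the main fit. The settings named above with lower pathway counts called fewer. With the minimum of 1000 fewer probe sets were tested, and Mfap2 was not among them. The pathway counts thus rest on different bases and do not show a change particular to Notch genes. Ccn3 also passed as lower with quantile scaling, with median scaling, with an offset of 200, with vehicle 48 h replicate 1 put back and with weights on all 16 arrays. Leaving out 1 array gave counts of 2 to 4, with 2 without vehicle 48 h replicate 3, vehicle 48 h replicate 4 or NARA 48 h replicate 1. Tle1 lost its call in 8 of 25 settings, among them leaving out any of those 3 arrays, with a limma adjusted p of 0.0597 without vehicle 48 h replicate 3, 0.0685 without vehicle 48 h replicate 4 and 0.0534 without NARA 48 h replicate 1. Dlk2 lost its call in 3 of 25 settings, and Mfap2 in 1 of 24.

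Of the Hes and Hey family, 6 genes were tested, 1 passed and all 6 had log2 differences above 0 at 48 h, with a median of 0.26. Over all genes tested by their brightest probe set, 49.2% were above 0 and 1.71% passed as higher. Heyl was below 0 with quantile or median scaling, and its dimmer probe set was at -0.68. Besides the members the tested genes were Hes6, at 5825 ± 379 (SD, n = 3) in vehicle and 6999 ± 436 (SD, n = 4) in NARA with a limma adjusted p of 0.173, Hes5 at a log2 difference of 0.41 ± 0.46 (SE) and Hey2 at 0.22 ± 0.24 (SE). Hes2 and Hes3 lay below the minimum and had lower means in NARA. Hes2 was at 92.2 ± 51.7 (SD, n = 3) in vehicle and 62.6 ± 17.0 (SD, n = 4) in NARA, and Hes3 at 214 ± 229 (SD, n = 3) and 43.7 ± 15.6 (SD, n = 4).

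The remaining lists had no gene past the test at 48 h. Among the receptors, Notch4 had a log2 difference of -0.32 ± 0.60 (SE), and among the ligands Dll4 had -0.31 ± 0.24 (SE), with -0.071 without vehicle 48 h replicate 3 and -0.64 without vehicle 48 h replicate 4. Of the 7 tested genes that cut the receptor, Furin, which cleaves it on its way to the surface, had -0.50 ± 0.15 (SE) with a limma adjusted p of 0.107. Psen2, a catalytic subunit of gamma-secretase, had -0.79 ± 0.27 (SE) with a limma adjusted p of 0.155. The glycosyltransferases that modify the receptor had 0.28 ± 0.15 (SE) for Lfng and -0.15 ± 0.15 (SE) for Rfng.

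The ubiquitin ligases that drive ligand endocytosis had -0.30 ± 0.18 (SE) for Mib2 and -0.22 ± 0.47 (SE) for Neurl1. Rbpj itself, the DNA-binding protein of the pathway, had signals of 11377 ± 132 (SD, n = 3) in vehicle and 10304 ± 408 (SD, n = 4) in NARA, a log2 difference of -0.14 ± 0.083 (SE). Kat2b, a histone acetyltransferase of the nuclear complex, had 0.34 ± 0.096 (SE) with a limma adjusted p of 0.0954, and Maml2, a Mastermind co-activator, -0.29 ± 0.13 (SE). The Deltex genes Dtx4 and Dtx3l had 0.46 ± 0.15 (SE) and -0.21 ± 0.12 (SE). Rbpj and Notch4 are named here outside the rule for named genes, after their values were seen, as are Hes6, Hes5, Hes2, Hes3, Hey2 and Ccn3. The same holds for the markers Col3a1, Col1a1, Dcn, Postn, Dpt, Thy1, Myog, Ncam1, Itga7, Vcam1, Chrna1, Tagln and Acta2.

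**Figure D5:**
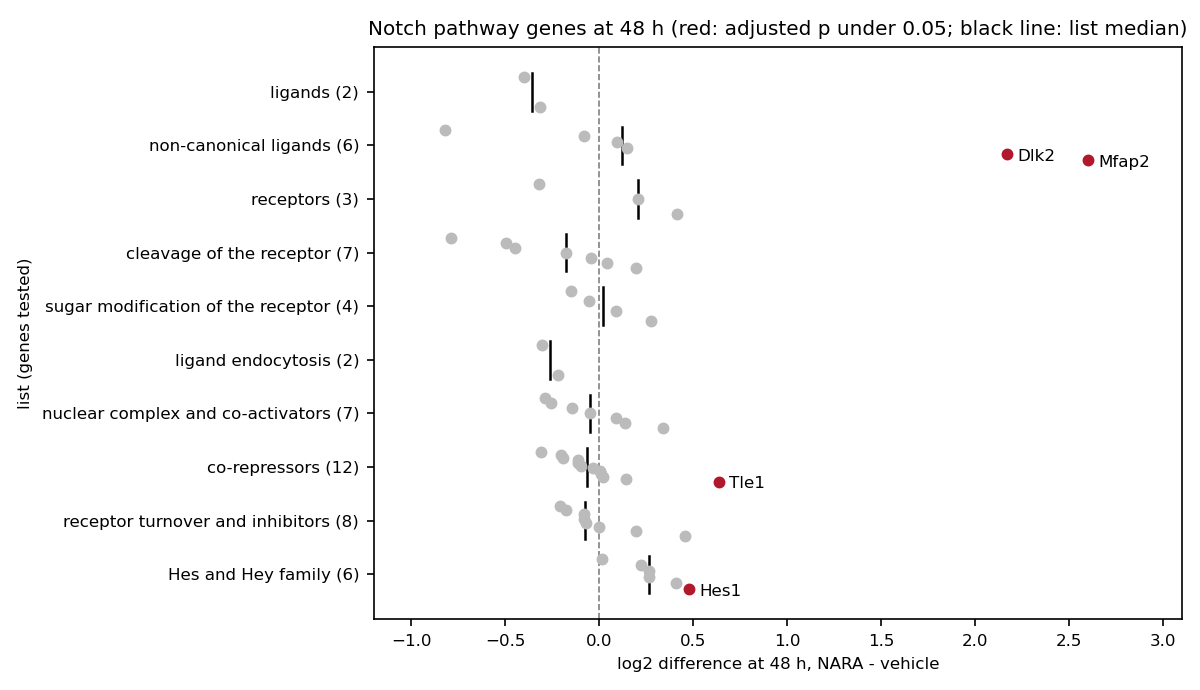
Log2 difference at 48 h, NARA minus vehicle, of the 57 tested Notch pathway genes by list, with the number tested in brackets; each point is a gene, red points had an adjusted p under 0.05 and black lines are list medians. The 4 red points are Mfap2, Dlk2, Tle1 and Hes1, and all 6 points of the Hes and Hey family lie above 0, though that of Heyl was below 0 with quantile or median scaling. Hes2 and Hes3, below the signal minimum and with lower means in NARA, are not shown.

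The genes whose pattern over the 13 arrays was most like that of a member, by Pearson's r of log2 values among 11285 other genes, are a description without a test. The arrays share treatment and time. For Hes1 these were Sec11c (r = 0.928), Arcn1 (0.913) and Cdk17 (0.909), and for Notch1 they were Sparc (0.874), Pla2g5 (0.862) and Cmbl (0.857). For Notch3 they were Mefv (0.898), Mlxipl (0.866) and Trpm4 (0.834), and for Jag1 Uqcrh (0.870), Rbm15 (0.870) and Zfat (0.825). For Hey1 they were Fam167a (0.926), Dmrtc1c1 (0.856) and Brat1 (0.834), and for Heyl Nr1h3 (0.895), Triobp (0.846) and Nr1h2 (0.796). No member was among the 3 most like another member. Between members, r over the 13 arrays ran from -0.55 for Jag1 and Notch1 to 0.49 for Notch3 and Hey1, and Hes1 had 0.47 with Notch1 and 0.39 with Hey1.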

How the data were processed

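Total RNA, 5 µg per sample, was hybridised to Affymetrix Rat Genome 230 2.0 arrays, per the series' design text; a Trizol and a column extraction are both named. Each deposited intensity is a MAS5 signal, per the submitters' processing notes, which the authors scaled to a trimmed mean of 1500. Of 31099 probe sets, 57 controls were set aside. Signals were transformed as log2(signal + 50), and 20904 probe sets with a mean of at least 300 over the 13 arrays kept by the authors were tested with limma 3.58.1 (lmFit, eBayes) in R 4.3.3, two-sided. All 4 groups shared 1 estimate of the spread, with 9 residual degrees of freedom, and p-values were adjusted over all tested by Benjamini-Hochberg at 0.05. The number of arrays limits the precision. Detection calls were not used here. The code was tested on simulated data.

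The members and the pathway and marker lists were chosen with earlier results of these data known. Named were all members, pathway genes past the threshold, otherwise up to 2 per list by p at 48 h, and the 3 genes most like each member. A gene with several probe sets was represented by its brightest. Alternatives were other sets of arrays, array weights, offsets of 1 and 200, no minimum or 1000, scaling by quantiles or by medians, a robust prior with a trend, a replicate block, only the groups compared, and leaving out each array.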

Additional observations from a re-analysis of the deposited data

Results flagged for a closer look

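Among 20 groups of 4 arrays checked for a sample far from the others relative to the group's range, 2 held one, and chance gives about 1 in 20. For Notch3 in vehicle at 4 h this was the lowest array, at 952, where the gap was 0.911 of the group's range. That range was narrow, with the group at 1020 ± 45.6 (SD, n = 4). For the dimmer Heyl probe set in NARA at 48 h it was the highest array, at 446, with a gap of 0.901 of the range.

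For a pair of member probe sets every NARA array lay on one side of the vehicle mean at 4 h and on the other side at 48 h. NARA at 4 h had 2 kept arrays, and the share of all probe sets with this pattern was not counted. For Hes1 the effect at 48 h minus that at 4 h was 0.64, which did not pass the test of the difference (limma adjusted p = 0.255). For the dimmer Notch1 probe set, below the signal minimum, it was -2.95, with a limma adjusted p of 0.430 when all probe sets were tested.

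Arrays that the authors left out gave signals above the highest kept vehicle array. In NARA 4 h replicates 1 and 4, which carry high liver signal, Hes1 was at 4548 and 2872, against at most 2281 in kept vehicle arrays. Notch1 was at 1743 and 1924 by its brighter probe set, against 604, and at 2027 and 1967 by its dimmer one, against 495. Dll1 was at 232 and 95.5, against 91.5, and Hey1 at 841 and 1009, against 777. In replicate 4 Notch3 was at 1394, against 1225, and the brighter Heyl probe set at 949, against 734. In vehicle 48 h replicate 1 the brighter Notch1 probe set was at 629, Notch2 at 491 against 356, Dll1 at 106, Hey1 at 947 and the brighter Heyl probe set at 753. Other left-out values lay lower, such as Jag1 at 245 and 529 in the NARA 4 h replicates and the dimmer Notch1 probe set at 158 in vehicle 48 h replicate 1.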

How the results depend on the processing

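At 48 h 1 member passed as reported. It was 0 members with all 16 arrays, with weights on the arrays, without a signal minimum, with median scaling, with only the groups compared and with the replicate number as a block, and 0 to 1 when each array was left out. The pathway count of 4 was 0 with all 16 arrays, 2 without a minimum, 1 with only the groups compared, 1 with the replicate block, 6 with a minimum of 1000 or the robust prior with a trend, and 2 to 4 when each array was left out. With the minimum of 1000 and with that prior, more probe sets were called over all tested as well. Fewer were called with all 16 arrays, without a minimum, with only the groups compared and with the replicate block. The counts of members past the threshold at 4 h, for the difference of effects and in vehicle over time stayed at 0 in all settings run. No pairing of the arrays by replicate number was seen in the signals, which cannot show whether a number marks a shared culture. Same-numbered arrays' deviations correlated at -0.036 to 0.039 over 16 pairs, against -0.052 to 0.050 over 46 pairs of other numbers. Of the 13 arrays, 2 were closest to one of their own number.

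Signs turned for values that never passed. With all 16 arrays, Jag1 (-0.32), Hey1 (0.27) and Hes1 (0.34) turned at 4 h, and Jag1 (0.010), Notch1 (-0.78) and Hey1 (-0.18) for the difference of effects. Heyl at 48 h was -0.068 with 16 or 14 arrays, -0.016 with quantile scaling, -0.027 with median scaling and -0.0071 with the replicate block, where Notch1 had a difference of effects of -0.087. Neurl1 at 48 h was 0.052 with 16 or 14 arrays and 0.0052 with weights. In vehicle over time Hey1 was 0.16 with 16 or 14 arrays, 0.075 with weights, 0.019 with quantile and 0.013 with median scaling, and Heyl 0.058 with 16 or 14 arrays. Leaving out each array gave ranges across 0 at 4 h for Heyl (-0.051 to 0.12), Hey1 (-0.41 to 0.20) and Notch3 (-0.83 to 0.18). At 48 h it did so for Heyl (-0.11 to 0.17), Notch3 (-0.066 to 0.45) and Rfng (-0.31 to 0.055). For the difference of effects it did so for Heyl (-0.14 to 0.14) and Notch1 (-0.059 to 0.30), and in vehicle over time for Hey1 (-0.20 to 0.13), Heyl (-0.18 to 0.098) and Notch3 (-0.46 to 0.054). The cause was not tested. The alternatives for the pathway counts were chosen after seeing the data. With 2 NARA arrays at 4 h, the members' standard errors are larger in the 4 h comparison than at 48 h, and larger again for the difference of effects.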
